A study of Cucurbita moschata with 6 samples.

Results

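The SAUR genes (SMALL AUXIN UP RNA) of pumpkin (Cucurbita moschata) are described here in the seedling stem below the cotyledons, the hypocotyl. They were taken from the deposited gene table by product name: SAUR, the auxin-induced proteins X15, X10A, 6B, 15A and 10A5, or the indole-3-acetic acid-induced protein ARG7. This rule found 90 of 32205 genes, and it uses no measured value. Poly(A) RNA was sequenced from seedlings with unfolded cotyledons, raised in 14 h days (28 °C) and 10 h nights (18 °C). The series asks how far-red light affects elongation of this stem. By title the 6 libraries are SCK replicates 1 to 3 and SR replicates 1 to 3. Neither name is spelled out in the labels. SCK is read here as the control, because CK is a customary abbreviation for one, and SR as the treatment. All 6 samples carry the same treatment label, 120 s of far-red light, and all come from 1 registered pumpkin variety. The labels do not say whether a library holds 1 or several seedlings, or how the replicates were separated, and the p-values reflect only how far these libraries scatter, which may be technical.

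SAUR genes encode small proteins, mostly from genes without introns, and were first found as transcripts that rise within minutes of an auxin dose in elongating soybean hypocotyls. In Arabidopsis, SAUR proteins of the SAUR19 to SAUR24 kind inhibit phosphatases 2C of the D clade. This keeps plasma membrane proton pumps active, acidifies the wall and lets the cell expand. Other Arabidopsis SAUR genes act in cotyledon opening, the apical hook and senescence, so the family is no single growth switch. Bulk RNA cannot tell fewer cells of a type from less RNA per cell, and this holds for all levels below.

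Deposited counts summed to between 52300725 and 72356397 per library. Levels are FPKM, fragment counts scaled to gene length and library size, as deposited and as mean ± SD (n = 3). Changes are log2 fold changes of SR against SCK ± SE from edgeR's quasi-likelihood test, with Benjamini-Hochberg adjustment over all tested genes. Genes that reached 1 FPKM in 3 or more libraries were tested, and a gene was called at an adjusted p under 0.05. No gene marks hypocotyl alone. Over all tested genes, 7.2% were called as rises and 7.16% as falls. Among marker lists, 24 tested light-harvesting antenna genes held 10 falls (41.7%) and 0 rises. Their summed level was 6532 to 7688 FPKM in SCK and 4189 to 5803 in SR. The 23 tested phloem genes held 6 rises (26.1%) and 0 falls. They summed to 3489 to 3754 FPKM in SCK and 3299 to 5688 in SR, the highest in SR replicate 1. Under 1 FPKM in every library were 3 of 27 antenna genes and 1 of 25 phloem genes. Xylem genes summed to 24.8 to 27.6 FPKM in SCK and 32.9 to 40.5 in SR, with 0 rises and 0 falls among 4 tested. Of these genes, 4 of 8 stayed under 1 FPKM everywhere. Seed reserve genes summed to 26.2 to 35.2 and 31.03 to 39.0 FPKM, with 15 of 23 under 1 FPKM everywhere. They had 1 rise and 0 falls among 7 tested. Root genes summed to 41.1 to 47.7 and 49.4 to 51.0 FPKM, with 2 of 6 under 1, and had 0 rises and 0 falls among 4 tested. The part of these tissues in the SAUR values was not tested.

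The SAUR genes were spread over 16 chromosomes but mostly stood side by side. With members joined where their starts lay within 20 kb of each other, 55 of the 90 fell into 4 tandem groups, 6 formed 3 pairs and 29 stood alone. The largest group, on chromosome 20 from 3902900 to 3991687, held 23 members, 21 of them named SAUR21, SAUR23 or SAUR24. The group on chromosome 2, from 1727300 to 1770423, held 16, of which 14 carried these names. Smaller groups lay on chromosome 19 (9 members, 7493864 to 7551083) and chromosome 11 (7 members, 12142633 to 12180815), with 5 genes each named 15A, X15 or X10A. All positions are those of the deposited table, and the sources used here do not name its genome build.

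The groups came in matching sets. A gene for ribosomal protein S12 sat inside both the chromosome 2 and the chromosome 20 group, and a U-box protein gene inside both the chromosome 11 and the chromosome 19 group. The pairs on chromosome 1 and chromosome 9 each consisted of a SAUR50-like and a 6B-type gene on either side of a gene for filament-like plant protein 4. The gene bodies were short, with a median of 340.5 bp against 2697 bp over all genes, and 19 members spanned exactly 294 bp. At the other end, 15 members spanned over 1000 bp, up to 5201 bp. A gene on the opposite strand overlapped 23 members. The sources used here do not say whether counting used strand or how it handled reads shared by near-identical copies, so single values inside the groups are uncertain.

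Of the 90 genes, 68 were tested (75.6%, against 73.0% of all genes). Another 19 had reads but lay below the threshold, and 3 had a count of 0 in every library: SAUR21-like genes on chromosomes 2 and 20 (CmoCh02G003470 and CmoCh20G008050) and an X15 gene on chromosome 17 (CmoCh17G004840). By type, the untested members were 6 named SAUR21, SAUR23 or SAUR24, 6 named SAUR50, 4 named SAUR71, 1 each of the X15, 6B, SAUR32 and SAUR36 types, a SAUR15-like gene and the ARG7 gene. Tested members had a median level of 5.93 FPKM, next to 10.7 FPKM over all tested genes. Only 4 members averaged above 50 FPKM. They were the SAUR32-like genes on chromosomes 14 and 6, a SAUR71 gene on chromosome 9 and a gene named SAUR family protein on chromosome 3.

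Few SAUR genes separated SR from SCK. Of 68 tested members, 7 were called (10.3%, against 14.4% of all tested genes), 4 as rises (5.88%) and 3 as falls (4.41%). Over all tested genes, 7.2% rose and 7.16% fell. With so few calls a handful of genes makes this gap, and it is not read as a difference. The rises were SAUR71 on chromosome 9, 6B on chromosome 9, SAUR50-like on chromosome 14 and 15A-like on chromosome 19. The falls were SAUR68-like on chromosome 19, SAUR71-like on chromosome 20 and SAUR32-like on chromosome 6. The signs were split evenly, with 33 log2 changes above 0 and 35 below, and a median of -0.04 against 0.01 over all tested genes. Without SR replicate 3 that median was -0.31. The SR and SCK values did not overlap in 13 tested members (19.1%), against 40.6% of all tested genes. SR was the higher group in 7 of the 68 and the lower in 6, against 27.9% and 12.7% of all tested genes.

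**Figure D1:**
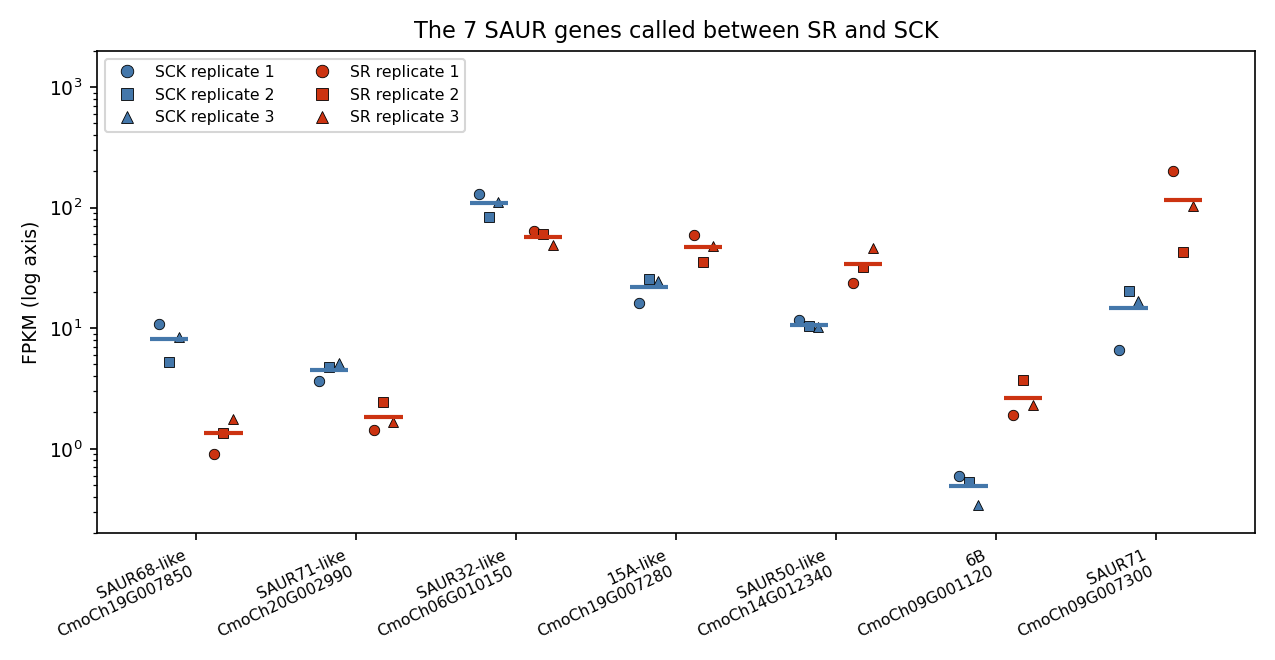
FPKM on a log axis of the 7 called SAUR genes in each library, with SCK in blue, SR in red, the replicate by symbol and group means as bars. In every one of the 7 the SCK and SR values do not overlap, from SAUR68-like (8.16 to 1.34 FPKM) to SAUR71 (14.6 to 116 FPKM). The same values gave the calls, so this is no separate evidence, and 40.6% of all tested genes do not overlap.

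These calls rested on the libraries. Leaving out SCK replicate 1, edgeR called 2 rises and 1 fall, and leaving out SCK replicate 2, 0 rises and 2 falls. Leaving out SR replicate 1 gave 5 rises and 2 falls, SR replicate 2 gave 4 and 2, and SR replicate 3 gave 0 and 1. Without SCK replicate 1 and 2 this was 4.41% and 2.94% of members, next to 6.70% and 7.09% of all tested genes. Without SR replicate 1, 2 and 3 it was 10.3%, 8.82% and 1.47%, next to 14.6%, 8.44% and 2.31%. Without SCK replicate 3 edgeR called 0 members, as it called 0 of all genes. Its unadjusted p was under 0.05 in 11 members (16.2%), next to 23.6% of all tested genes. In that setting DESeq2 called 6 rises and 4 falls among the members (14.7%), next to 15.3% of all tested genes, of which 7.57% rose and 7.77% fell. With all libraries it also called 6 and 4, next to 25.6% of all tested genes, with 13% rises and 12.7% falls. The members called were not all the same. DESeq2 called the 6B-like gene CmoCh01G020200 with all libraries (adjusted p = 0.0259) but not without SCK replicate 3 (adjusted p = 0.142).

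The SAUR71 type gave both the largest called rise and a called fall. In Arabidopsis SAUR71 is known for its expression in the central vascular cylinder. SAUR71 on chromosome 9 (CmoCh09G007300, 3644591 to 3645046) was at 6.66, 20.4 and 16.9 FPKM in SCK replicates 1, 2 and 3 and at 201, 42.9 and 103 FPKM in SR replicates 1, 2 and 3. The lowest SR value was still about 2 times the highest SCK value, and SR replicate 1 stood highest, as it did for the phloem markers. Its change was 2.88 ± 0.64 (adjusted p = 0.0314), and it passed in 2 of the 6 fits that left out a library, without SR replicate 1 or 2 (adjusted p over the 6 from 0.0283 to 0.115).

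A second gene of this name, on chromosome 1 (CmoCh01G013600, 10727520 to 10728150), was listed at a count of 0 in all SCK libraries and at 318, 16 and 137 counts in SR replicates 1, 2 and 3. Against a floor of 12 deposited counts over the SCK group, taken as 3 read pairs, the SR level was at least 34.1-fold higher, or at least 16.2-fold without SR replicate 1, which held most of the counts. It reached 1 FPKM in too few libraries to be tested. In the fit of every gene with a count above 0 its adjusted p was 0.0422, and it is named here because its values were seen. SR replicate 1 was again the highest of the SR libraries, as in the other gene of this name.

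SAUR71-like on chromosome 20 (CmoCh20G002990, 1463444 to 1463878) went the other way. It was at 3.63, 4.72 and 5.13 FPKM in SCK and at 1.43, 2.42 and 1.67 FPKM in SR, and fell by 1.42 ± 0.31 on the log2 scale (adjusted p = 0.0290, and 0.0415 to 0.116 without single libraries, passing only without SR replicate 2). All SR values lay below all SCK values. The other 4 tested genes named SAUR71 or SAUR72 had log2 changes from -0.67 to 0.36 and were not called.

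SAUR32 genes held the highest levels of the family. In Arabidopsis SAUR32 is known for an effect on the apical hook. SAUR32-like on chromosome 6 (CmoCh06G010150, 7965980 to 7966294) was at 130, 84.1 and 112 FPKM in SCK and at 63.7, 59.9 and 48.8 FPKM in SR. It fell by 1.06 ± 0.21 (adjusted p = 0.0232), with no overlap, and passed without SCK replicate 2 or SR replicate 1 but in no other fit without a library (adjusted p over the 6 from 0.0290 to 0.0964).

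The most abundant SAUR gene of all, SAUR32-like on chromosome 14 (CmoCh14G021980, 15675371 to 15675682), was at 193, 200 and 208 FPKM in SCK and at 194, 115 and 187 FPKM in SR. SR replicate 2 alone lay clearly below the others, and the change of -0.41 ± 0.22 was not called (adjusted p = 0.236). The SAUR32-like gene on chromosome 16 (CmoCh16G011020), at a low level, had a log2 change of -0.91 ± 0.43 and was not called either (adjusted p = 0.188).

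The SAUR50 type held 1 rise among 6 tested genes. In Arabidopsis SAUR50 is known for the opening of cotyledons in light. SAUR50-like on chromosome 14 (CmoCh14G012340, 10464566 to 10464919) was at 11.6, 10.4 and 10.1 FPKM in SCK and at 23.5, 31.9 and 46.4 FPKM in SR. SCK was tight and every SR library was at least 2 times higher than every SCK library. The gene rose by 1.52 ± 0.26 (adjusted p = 0.0183), and passed without SCK replicate 1, SR replicate 1 or SR replicate 2 (adjusted p over the 6 such fits from 0.0129 to 0.0911). The other 5 tested SAUR50 genes, of 12 in all, had log2 changes from -0.61 to 0.76 and none was called.

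SAUR68-type genes are known in Arabidopsis as neighbours of SAUR63, which promotes hypocotyl growth. SAUR68-like on chromosome 19 (CmoCh19G007850, 7868872 to 7869735) was at 10.7, 5.27 and 8.46 FPKM in SCK and at 0.909, 1.34 and 1.77 FPKM in SR. The SR values all lay far below the lowest SCK value. This was the largest fall among the tested members, -2.74 ± 0.40 (adjusted p = 0.0140), and the call held in 5 of the 6 fits without a library, missing without SCK replicate 3 (adjusted p = 0.0764). The gene of the same name on chromosome 11 (CmoCh11G017660) was at 4.19, 1.58 and 2.07 FPKM in SCK and at 6.94, 3.29 and 4.82 FPKM in SR. Its groups overlapped and its change of 0.80 ± 0.49 was not called (adjusted p = 0.295).

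The 6B type is named after an auxin-induced transcript of soybean. The 6B gene on chromosome 9 (CmoCh09G001120, 530087 to 530539) was at 0.593, 0.527 and 0.344 FPKM in SCK and at 1.91, 3.71 and 2.29 FPKM in SR. It rose by 2.23 ± 0.41 (adjusted p = 0.0202) from counts of 12 to 17 per SCK library, and it passed without SCK replicate 1, SR replicate 1 or SR replicate 2 (adjusted p over the 6 such fits from 0.0237 to 0.0917). The groups did not overlap, but the same values gave the call, so this is no separate evidence. Over all tested genes, 27.9% had every SR value above every SCK value.

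Its counterpart beside the filament-like protein gene on chromosome 1 (CmoCh01G020200, 14202814 to 14203266) had counts of 0, 20 and 10 in SCK replicates 1, 2 and 3 and of 100, 40 and 170 in SR. The groups did not overlap there either, but the change of 3.04 ± 1.04 was not called by edgeR (adjusted p = 0.0931) and was by DESeq2 (adjusted p = 0.0259). The SAUR50-like partners in these pairs had overlapping groups and were not called. The remaining tested 6B gene, at the edge of the chromosome 19 group (CmoCh19G007160, 7493864 to 7494316), had the opposite sign. It was at 18.8, 33.9 and 26.1 FPKM in SCK and at 14.2, 11.3 and 18.1 FPKM in SR, with a change of -0.98 ± 0.27 that just missed the threshold with edgeR (adjusted p = 0.0522) and passed it with DESeq2 (adjusted p = 0.00497).

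Genes named 15A, X15 and X10A, also after soybean transcripts, had 1 rise among 13 tested. The called gene, 15A-like on chromosome 19 (CmoCh19G007280, 7542842 to 7544360), was at 16.2, 25.4 and 24.6 FPKM in SCK and at 59.1, 35.6 and 47.9 FPKM in SR. It rose by 0.99 ± 0.25 (adjusted p = 0.0448), the weakest of the 7 calls. The call held without SR replicate 2 only (adjusted p over the 6 fits without a library from 0.0375 to 0.126), and it was lost when all genes with a count, or those kept by edgeR's filterByExpr, were tested. It overlaps another 15A-like gene on the opposite strand (CmoCh19G007270), at 12.6, 18.9 and 14.3 FPKM in SCK and 26.5, 20.2 and 21.97 FPKM in SR, which was not called (0.46 ± 0.21, adjusted p = 0.168). Without strand, the reads of the overlapping stretch cannot be told apart.

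SAUR36 is known in Arabidopsis for a part in leaf senescence. The tested SAUR36 gene on chromosome 6 (CmoCh06G015940) had a change of -0.45 ± 0.41 and the one on chromosome 14 (CmoCh14G015800) of 0.24 ± 0.35. Neither was called and both had overlapping groups.

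The SAUR21, SAUR23 and SAUR24 genes carry the names of the Arabidopsis kind that inhibits the D-clade phosphatases. None of the 31 tested was called by edgeR, 0 had an unadjusted p under 0.05, and DESeq2 and limma also called 0. Over all tested genes edgeR called 14.4%, with 33.3% at an unadjusted p under 0.05, DESeq2 called 25.6% and limma 14.8%. The log2 changes of the 31 genes ran from -0.70 to 1.41 with a median of 0.06. The most abundant, SAUR21-like isoform X2 on chromosome 2 (CmoCh02G003350, 1727300 to 1727593), was at 53.4, 36.0 and 39.7 FPKM in SCK and at 17.8, 36.4 and 47.4 FPKM in SR. SR replicate 1 lay below all SCK values and SR replicate 3 above 2 of them, and the change of -0.50 ± 0.35 was not called (adjusted p = 0.363).

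**Figure D2:**
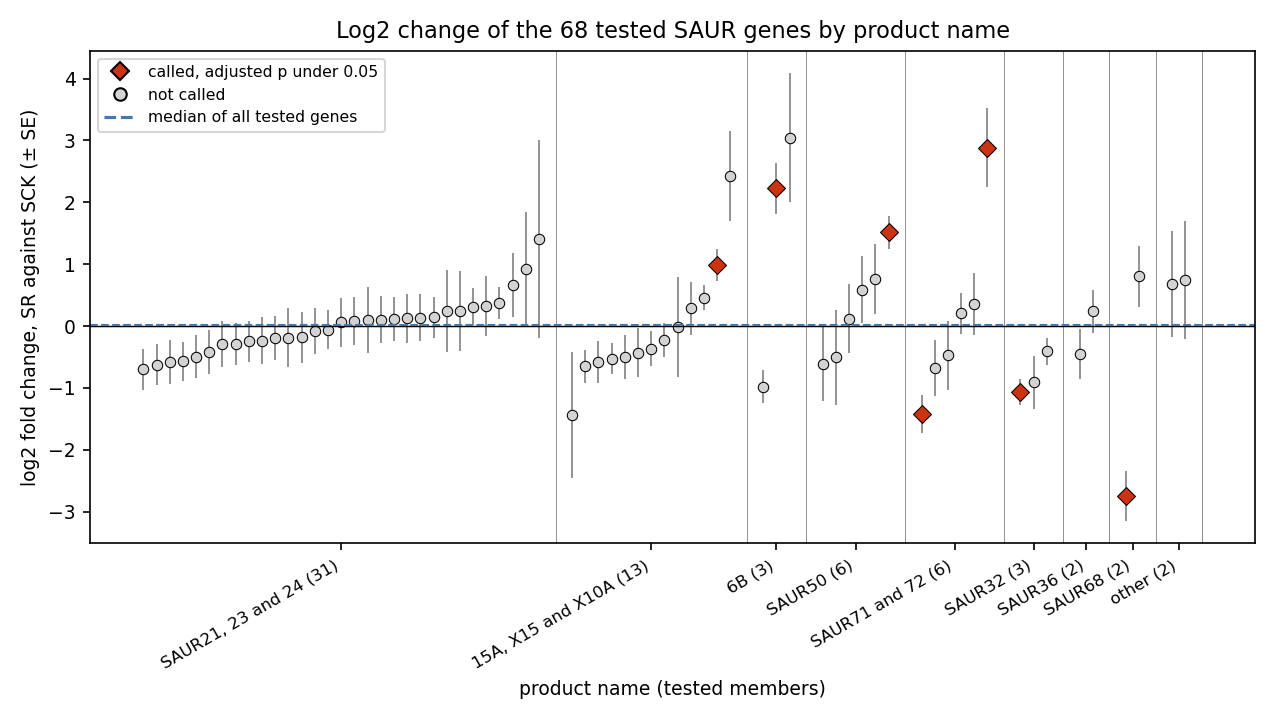
Log2 fold change ± SE of SR against SCK for the 68 tested SAUR genes, sorted within each type of product name, with called genes as red diamonds and the median of all tested genes as a dashed line. The 31 SAUR21, SAUR23 and SAUR24 genes hold none of the 7 calls, and the SAUR71 and SAUR72 genes hold 1 rise and 1 fall.

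The summed levels of the tandem groups overlapped between SR and SCK in all 4 groups and spread widely within SR. The 16 genes of the chromosome 2 group summed to 136, 140 and 145 FPKM in SCK replicates 1, 2 and 3 and to 78.7, 132 and 195 FPKM in SR replicates 1, 2 and 3. Their sum was thus nearly constant in SCK (141 ± 4.42 FPKM) and spread from well below to well above it in SR (135 ± 58.1 FPKM). The 23 genes of the chromosome 20 group did the same, with 108, 106 and 110 FPKM in SCK and 76.6, 145 and 187 FPKM in SR.

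The chromosome 11 group summed to 74.9, 77.0 and 81.4 FPKM in SCK and to 43.0, 91.5 and 103 FPKM in SR. In all 3 groups SR replicate 1 was the lowest library of the 6 and SR replicate 3 the highest, and SR replicate 3 stood 2.40 to 2.48 times above SR replicate 1. The chromosome 19 group was flatter, at 172, 195 and 184 FPKM in SCK and 161, 161 and 209 FPKM in SR. As a log2 ratio of group means, SR against SCK was -0.06 on chromosome 2, 0.34 on chromosome 20, 0.03 on chromosome 11 and -0.06 on chromosome 19. Without SR replicate 1 these ratios were 0.22, 0.62, 0.33 and 0.01.

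**Figure D3:**
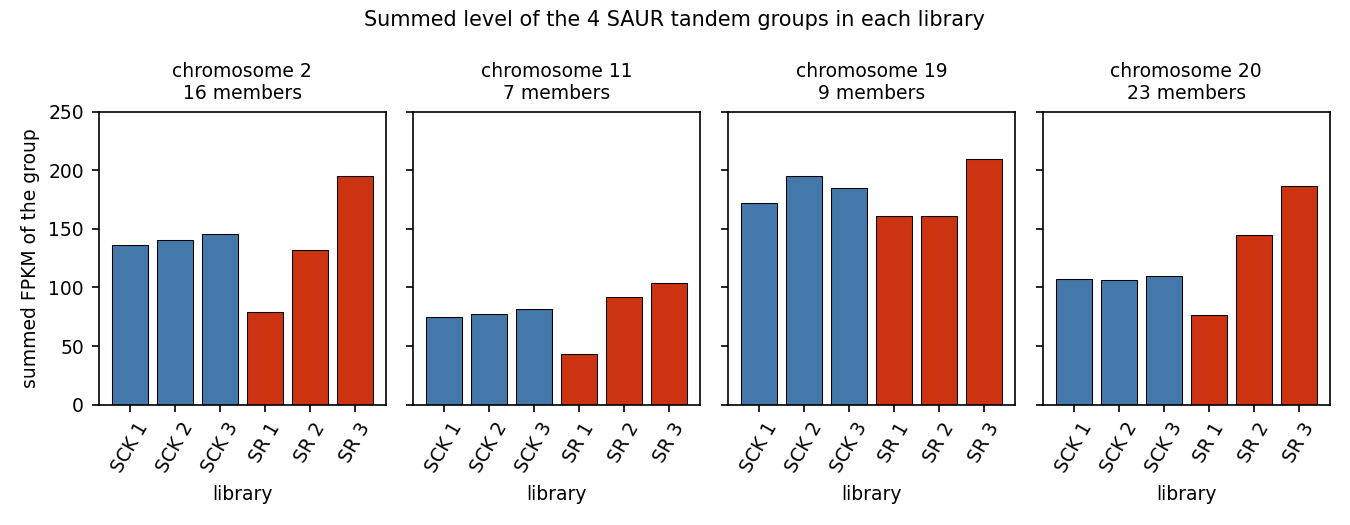
Summed FPKM of the members of each of the 4 SAUR tandem groups in each library, with SCK in blue and SR in red. In the groups on chromosomes 2, 11 and 20 SR replicate 1 is the lowest bar and SR replicate 3 the highest, while the 3 SCK libraries stay close together.

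Most genes of these groups shared the order of the SR libraries. Of the 39 tested members on chromosomes 2, 11 and 20, 33 had their lowest SR value in replicate 1 and 30 their highest in replicate 3. Over all tested genes, replicate 1 was lowest in 44.5% and replicate 3 highest in 29.4%. These 3 groups were singled out by the same order in their sums, so the count is no separate evidence, and near-identical copies may share reads. On chromosome 19 it was 4 and 5 of 8. Over all 68 tested members, 61.8% were lowest in SR replicate 1. In SR replicate 1 the median difference of the tested members from the SCK mean was taken on the log2(FPKM + 1) scale. It was -0.46 on chromosome 2, -0.46 on chromosome 20, -0.81 on chromosome 11 and -0.80 on chromosome 19. In SR replicate 3 all 14 tested members on chromosome 2 and 15 of 18 on chromosome 20 lay above the SCK mean, at medians of 0.60 and 0.56. On chromosome 11, 3 of 7 were above it in that library, and on chromosome 19, 6 of 8. Over all tested genes the median difference in SR replicate 3 was 0.14.

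Over all 68 tested SAUR genes the median SD of log2(FPKM + 1) was 0.30 within SCK and 0.49 within SR, next to 0.17 and 0.20 over all tested genes. The members were also lower in level, at a median of 5.93 against 10.7 FPKM, and the part of level in this spread was not tested. The difference between SR replicate 3 and SR replicate 1 on this scale had a median of 0.64 over the members and 0.05 over all tested genes. SR replicate 1 was not low throughout, as its median distance from the SCK mean was 0.07 over all tested genes and -0.40 over the SAUR genes.

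**Figure D4:**
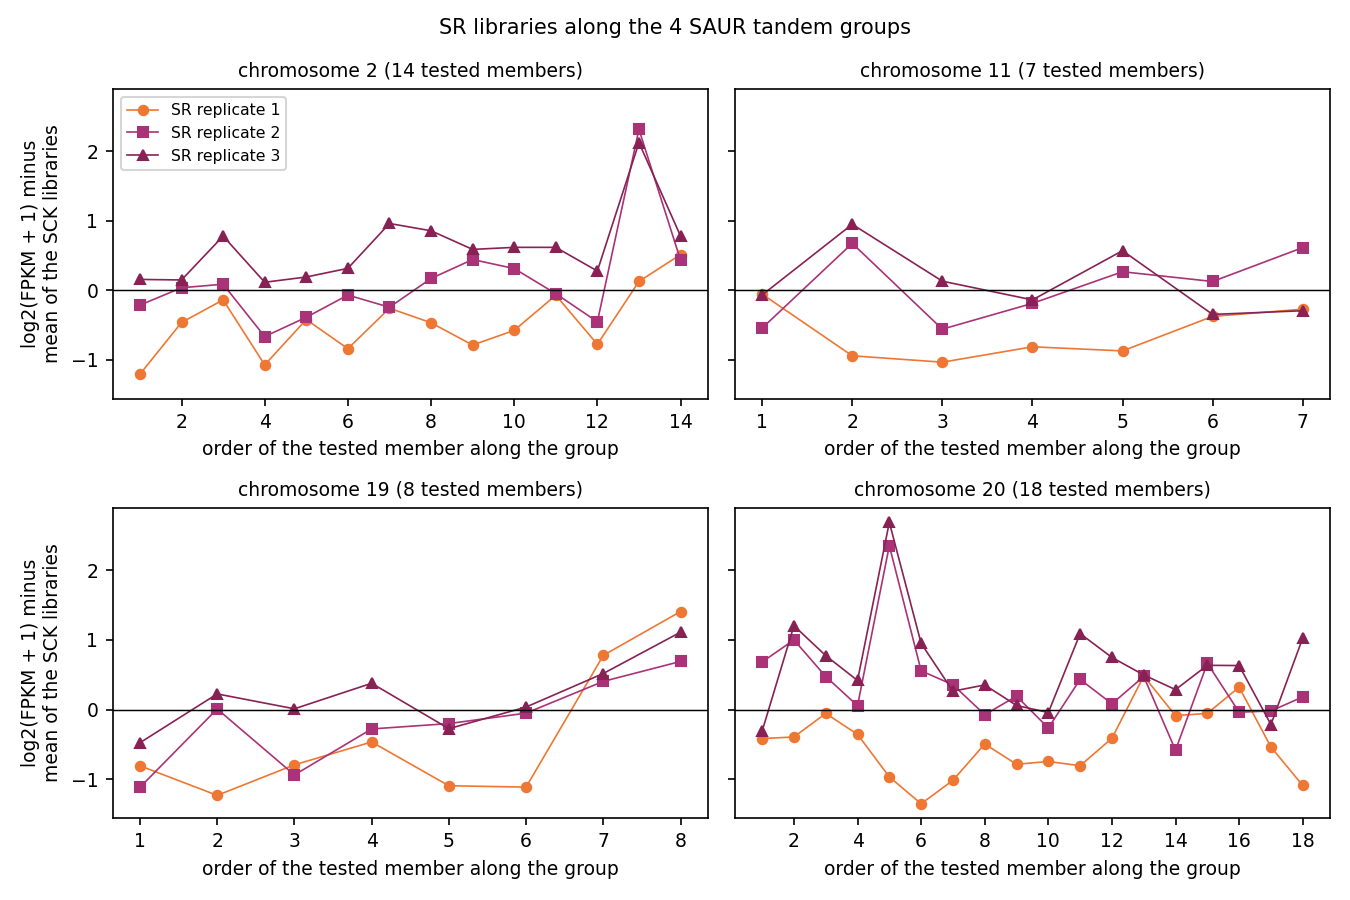
Log2(FPKM + 1) in each SR library minus the mean of the SCK libraries, for the tested members of the 4 tandem groups in their order along the chromosome. SR replicate 1 runs below 0 in 12 of 14 members on chromosome 2, 16 of 18 on chromosome 20, 7 of 7 on chromosome 11 and 6 of 8 on chromosome 19. SR replicate 3 runs mostly above 0 on chromosomes 2, 19 and 20. Over all tested genes the median difference was 0.07 in SR replicate 1 and 0.14 in SR replicate 3. Near-identical copies may share reads, so the members are not separate observations.

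Some SAUR genes outside these groups were not lowest in SR replicate 1. The pair on chromosome 3, both named SAUR family protein, was highest in SR replicate 1. The more abundant of them (CmoCh03G001120, 1573249 to 1573581) was at 9.82, 73.7 and 42.1 FPKM in SCK and at 172, 27.1 and 22.7 FPKM in SR. Its neighbour (CmoCh03G001110) was at 4.58, 28.3 and 19.4 FPKM and at 64.2, 9.36 and 15.1 FPKM. SCK replicate 1 was the lowest library for both and the groups overlapped, with changes of 0.74 ± 0.95 and 0.68 ± 0.86 that were not called (adjusted p = 0.625 and 0.619). Without SR replicate 1 the log2 ratio of the summed group means turned from 0.80 to -0.67.

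The most abundant gene of the chromosome 11 group, 15A-like (CmoCh11G017110, 12148652 to 12148942) was at 30.4, 28.8 and 30.3 FPKM in SCK and at 15.1, 48.2 and 58.5 FPKM in SR. It was not called with all libraries (0.29 ± 0.43, adjusted p = 0.676) and was called without SR replicate 1 (adjusted p = 0.0495). In the chromosome 19 group, X10A-like (CmoCh19G007240, 7523419 to 7523721) was at 54.0, 30.5 and 34.8 FPKM in SCK and at 17.3, 37.2 and 39.6 FPKM in SR (adjusted p = 0.369). In the chromosome 20 group, SAUR24-like (CmoCh20G008010, 3952128 to 3952415) was at 5.53, 15.1 and 13.4 FPKM and at 13.4, 10.2 and 16.8 FPKM (adjusted p = 0.857). SCK replicate 1 stood lowest there, unlike in the sum of its group.

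A few group members were nearly on or off between libraries of 1 group, and are named because their values were seen. SAUR21-like CmoCh20G007800 had counts of 3, 3 and 169 in SCK replicates 1, 2 and 3 and of 4, 243 and 287 in SR replicates 1, 2 and 3. SCK replicate 3 therefore lay far outside the other SCK libraries and beside SR replicates 2 and 3. SAUR24-like CmoCh20G007830 had counts of 4, 2 and 3 in SCK and 6, 30 and 185 in SR, and SAUR24-like CmoCh20G007820 had 3, 0 and 0 in SCK and 0, 0 and 54 in SR. At the end of the chromosome 2 group, 15A-like CmoCh02G003530 had counts of 10, 17 and 23 in SCK and 21, 183 and 145 in SR, a change of 2.43 ± 0.73 that was not called by edgeR (adjusted p = 0.0684) and was by DESeq2 (adjusted p = 0.0117). In all 4 genes SR replicate 1 lay within the range of the SCK libraries or close to it, and SR replicate 3 was high.

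Upstream of the SAUR genes, the auxin pathway was read from lists of product names, whose counts stand against the 7.2% of all tested genes that rose and the 7.16% that fell. Carriers, which move auxin between cells, had 5 rises (26.3%) and 0 falls among 19 tested. The gene for transporter-like protein 3 (CmoCh15G007120), of the influx carrier kind, was at 2.14, 3.04 and 2.98 FPKM in SCK and at 12.6, 35.5 and 37.9 FPKM in SR, a rise of 3.25 ± 0.40 (adjusted p = 0.0118). The efflux carrier component 4-like gene (CmoCh04G021920) rose by 1.01 ± 0.17, from 52.5 ± 0.28 to 116 ± 25.1 FPKM (adjusted p = 0.0167). Leaving out SCK replicate 1, 2 or 3 gave 3, 2 and 0 rises among carriers, and leaving out SR replicate 1, 2 or 3 gave 4, 3 and 2. With all libraries DESeq2 called 6 rises and 1 fall and limma 5 rises and 0 falls. With edgeR 7 carriers (36.8%) had an unadjusted p under 0.05, next to 33.3% of all tested genes. The summed level of carriers was 715 FPKM in SR replicate 1 and 1031 and 1074 FPKM in SR replicates 2 and 3, against 893 to 923 FPKM in SCK, so here too SR replicate 1 was the lowest.

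The F-box receptors, which bind auxin, had 1 fall among 9 tested, AUXIN SIGNALING F-BOX 2-like (CmoCh14G007690, -0.59 ± 0.13, adjusted p = 0.0329), and this call was lost in each fit without a library and with limma (adjusted p = 0.0530). Limma called 0 falls and 1 rise in this list, TRANSPORT INHIBITOR RESPONSE 1-like (CmoCh08G003830), which edgeR did not call (0.37, adjusted p = 0.111). Aux/IAA repressors, which are degraded when auxin is bound, had 2 rises and 2 falls among 45. Their called share was 8.89%, next to 14.4% of all tested genes. The falls were 22B-like (CmoCh08G010900, -0.72 ± 0.12) and IAA9-like (CmoCh12G001340, 379 ± 47.8 to 228 ± 34.4 FPKM), and the rises IAA27-like and AUX22-like. Auxin response factors, which bind the promoters of early auxin genes, had 1 rise and 2 falls among 35 (8.57% called). Both shares rest on few genes. Auxin response factor 19-like (CmoCh05G007670) was at 194, 168 and 170 FPKM in SCK and at 70.7, 74.3 and 51.9 FPKM in SR, a fall with no overlap (-1.57 ± 0.18, adjusted p = 0.0111). Response factor 6-like also fell and response factor 5-like rose. GH3 enzymes, which tie auxin to amino acids, had 1 fall among 6, GH3.6-like (CmoCh20G006010). It was at 15.8, 1.67 and 6.78 FPKM in SCK and at 0.372, 1.62 and 0.601 FPKM in SR (adjusted p = 0.0481), a narrow gap between the lowest SCK and the highest SR value.

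These small counts also changed with the libraries, as the calls over all tested genes did. For the Aux/IAA genes, leaving out SCK replicate 1, 2 or 3 gave 0, 1 and 0 rises with 1, 2 and 0 falls, and leaving out SR replicate 1, 2 or 3 gave 6, 2 and 0 rises with 2, 3 and 0 falls. For the response factors the same steps gave 0, 0 and 0 rises with 2, 1 and 0 falls, and then 0, 1 and 0 rises with 2, 1 and 1 falls. The GH3 fall was called without SCK replicate 2 or SR replicate 1 and was not called without any of the other 4 libraries. With all libraries DESeq2 called 8 rises and 5 falls among Aux/IAA genes, 2 and 4 among response factors, 1 and 1 among GH3 genes and 0 and 2 among receptors. Over all tested genes DESeq2 called 25.6%. With edgeR, unadjusted p was under 0.05 in 14, 8, 2 and 5 genes of these lists. These were 31.1%, 22.9%, 33.3% and 55.6% of each list, next to 33.3% of all tested genes.

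Downstream, the plasma membrane proton pumps that SAUR proteins keep active in Arabidopsis had 0 calls by edgeR among 8 tested, with 0 at an unadjusted p under 0.05 and 0 calls by DESeq2 and limma. Their summed level was 319 to 395 FPKM in SCK and 406 to 424 FPKM in SR. Phosphatases 2C had 5 rises and 11 falls among 101 tested (15.8% called), a share near the 14.4% of all tested genes. The rises with the smallest adjusted p were a pair of genes named phosphatase 2C 38, a name of the Arabidopsis D clade. The gene on chromosome 6 (CmoCh06G003340) was at 3.81, 4.89 and 5.93 FPKM in SCK and at 11.8, 26.3 and 17.1 FPKM in SR, a rise of 1.77 ± 0.28 (adjusted p = 0.0157). The gene on chromosome 14 (CmoCh14G001700) rose by 1.13 ± 0.21, from 16.9 ± 3.57 to 40.8 ± 10.8 FPKM (adjusted p = 0.0202). Both had SR values above all SCK values. The fall with the smallest adjusted p was phosphatase 2C 53 (CmoCh11G006560, -0.89 ± 0.16, adjusted p = 0.0190). Over the whole phosphatase list, leaving out SCK replicate 1, 2 or 3 gave 1, 4 and 0 rises with 4, 5 and 0 falls, and leaving out SR replicate 1, 2 or 3 gave 4, 3 and 0 rises with 10, 6 and 0 falls. With all libraries DESeq2 called 9 rises and 17 falls, and 39 phosphatase genes (38.6%) had an unadjusted p under 0.05, next to 33.3% of all tested genes.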

How the data were processed

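The deposited table covers 32205 genes and gives each library a column of raw counts, in whole numbers, and a column of FPKM, per the file headers. Per the submitters' processing notes, the authors used HISAT and StringTie. The sources used here name no genome build or annotation. Another 6 columns of values match no sample and were not used. The deposited FPKM is 0.0001 where the count is 0. The value 4 occurred 1350 times and 3 and 5 occurred 567 and 516 times, so 1 read pair may be worth about 4 deposited counts. Floors cover counting error only.

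The counts were tested with edgeR 4.0.16 in R 4.3.3 (glmQLFit and glmQLFTest, TMM factors, group as the only term) on all 23509 genes that reached 1 FPKM in 3 or more libraries. Each SE was derived from the log2 change and its F statistic. The fits were tested on simulated data. There DESeq2 made more false calls than edgeR and limma, and edgeR missed more of the changed genes than DESeq2. Those counts were drawn from the real means and edgeR's own dispersions, with few genes changed. They held no shift shared by the genes of a library, so they cannot rank the tools on the real data. Alternatives used DESeq2 1.42.0 and limma 3.58.1 on log2(FPKM + 1) or log2(FPKM + 0.1), other normalizations and filters, counts divided by 4, and each library left out. FPKM holds no TMM factor, so level ratios and fitted changes differ slightly: over all tested genes the fitted changes had a median of 0.01, or 0.14 when TMM factors were left out.

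Members, lists and tests were chosen with earlier results of these data known. Genes with values are all called members, those with an absolute log2 change of at least 1 and no overlap, the 8 most abundant and the leading gene of each tandem group of 3 or more, and up to 3 called genes per pathway list. Others are named where counts are small or as said in the text. From the proton pump list, 11 calcium pumps caught by the same words were left out. No sequence is shown, because the reference used here pairs no sequence with these gene identifiers.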

Additional observations from a re-analysis of the deposited data

How the results depend on the processing

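Under no TMM factors, relative log expression factors, limma with either pseudocount, DESeq2, both other filters and counts divided by 4, edgeR's 4 rises and 3 falls among the SAUR genes became 4 to 6 rises and 3 to 4 falls. Leaving out a library gave 0 to 5 rises and 0 to 2 falls, while edgeR called 0 to 14.6% of all tested genes. The median log2 change of the tested members stayed within -0.31 to 0.10 over all alternatives, less than the spread between SR libraries away from -0.04. With the replicate number as a replicate block edgeR called 0 rises and 0 falls, as it called 0 of all 23509 genes, with 11 members (16.2%) and 27.9% of all tested genes at an unadjusted p under 0.05. Deviations from the group means correlated at -0.15, -0.25 and 0.09 for numbers 1, 2 and 3. Deviations from a mean of 3 libraries depend on each other, so these values cannot show whether the numbers pair the libraries. DESeq2 without SCK replicate 3, a setting chosen after seeing the data, called 6 rises and 4 falls. No called member changed sign under any alternative run. With distances of 10 kb and 50 kb, or at most 1 other gene between neighbours, 49, 56 and 52 members stood in groups of 3 or more, in place of 55. At counts of about 20 or fewer per library, as in SCK for the 6B genes on chromosomes 1 and 9, single read pairs limit the values.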
